A study of Mus musculus with 24 samples.

Results

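The nuclear genes of oxidative phosphorylation were taken from the hippocampal RNA-Seq of Aged mice as the gene symbols that begin with Nduf a, b, c, s or v and a digit, with Uqcr, with Cox4 to Cox8 or with Atp5, and as Sdha, Sdhb, Sdhc and Sdhd, without pseudogenes marked -ps. By this rule 84 of the 49568 gene symbols listed were members. By symbol alone, 35 were assigned to complex I (Nduf without Ndufa4 and Ndufa4l2) and 20 to complex IV (Cox, Ndufa4 and Ndufa4l2). Another 4 (Sdh) were assigned to complex II, 8 (Uqcr) to complex III and 17 (Atp5) to complex V. Of the 84, 83 passed the filter on low counts, and Cox8c, a cytochrome c oxidase subunit 8 isoform, did not, with 1 read pair in KDEE sample 9 and 0 in the other libraries. Poly(A) RNA was sequenced from 24 male mice of 21 to 23 months, 1 library per mouse and 6 in each of 4 groups. WTSH mice were wild-type (WT) mice in standard housing (SH), WTEE mice were WT mice in environmental enrichment (EE), and KDSH and KDEE mice were MSK1 kinase dead (KD) mice in the same 2 conditions. MSK1 KD mice carry the D194A change, which leaves MSK1, a nuclear kinase of the MAPK pathway, without kinase activity, and were bred as a homozygous line beside a WT line on the C57-Bl/6J background, so genotype and line cannot be told apart. Enriched mice had lived from 18 months in cages made for rats, which held a ladder, tubes, toys and a wheel to run in. The paper assigned housing by cage and kept more males in an enriched cage than in a standard one. Which cage held each mouse is not given, so mice of a group may have shared a cage.

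Samples 4 and 7 of WTSH and sample 6 of KDSH were not used by the study, which leaves 4 WTSH, 6 WTEE, 5 KDSH and 6 KDEE libraries, and values below are over these 21 unless stated. Total counts on genes ranged from 27410239 to 71907130 read pairs in the 21 libraries and from 15800187 to 39585901 in the 3 left out. WTEE sample 10 stood apart from the other libraries in the genes described here, and the main results that rest on it are given with and without it. Markers of hippocampal neurons were present in every library, with Slc17a7 between 1158 and 1572 CPM (counts scaled to an equal library size) and Snap25 between 1659 and 2101 CPM. A list of 13 choroid plexus genes, Ttr among them, summed to over 1000 CPM in 5 libraries (WTSH sample 19, WTEE samples 10 and 13, KDEE samples 12 and 14) and to between 194 and 359 CPM in the other 16. Since the mutation changes 1 residue, the level of the MSK1 gene Rps6ka5 does not check the genotype labels.

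Oxidative phosphorylation joins the transfer of electrons from NADH and succinate to oxygen with the pumping of protons across the inner mitochondrial membrane. Complexes I, III and IV pump the protons, complex II links the chain to the citric acid cycle, and complex V (ATP synthase) lets protons flow back and makes ATP. Most subunits are encoded in the nucleus and imported, while a few core subunits are made from the mitochondrial genome, and neurons depend on this pathway for the ATP that ion pumps and synaptic transmission use.

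Levels were first compared between genes per kilobase of mRNA, on which scale the median gene of complex V stood at 146 CPM per kb, that of complex III at 113, complex IV at 105, complex II at 83.3 and complex I at 72.9. Cox8a, a small structural subunit of complex IV, was the highest of all at 672 ± 127 CPM per kb (SD, n = 21), followed by Atp5b, the catalytic beta subunit of ATP synthase, at 614 ± 47.7. In the other complexes the highest were Uqcrh, the hinge protein of complex III (229 ± 51.3), Ndufb9, an accessory subunit of complex I (200.2 ± 36.3), and Sdha, the flavoprotein of complex II (145 ± 4.86). The lowest tested genes of each complex were Ndufb2 in complex I (3.41 ± 0.225), Sdhc, a membrane anchor, in complex II (25.2 ± 4.54), Uqcrq in complex III (54.4 ± 13.1), Cox7b2 in complex IV (0.409 ± 0.167) and Atp5s, a factor coupled to ATP synthase, in complex V (8.47 ± 0.737). Levels per kb depend on the transcript taken, and with the length of all exons joined in place of the principal mRNA the median of complex V was 50.5 CPM per kb and that of complex IV 76.1, so the order of the complexes changed. Some of the highest and lowest genes changed as well. In complex III Uqcr10 (137.4) was then above Uqcrh (101.2), and Uqcrb (42.05) below Uqcrq (45.18). In complex V Atp5l (5.489) was below Atp5s (6.644), and Atp5a1 (277.8) stood level with Atp5b (277.7). Atp5o and Atp5sl had no single length in the annotation and are not on this scale.

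**Figure D1:**
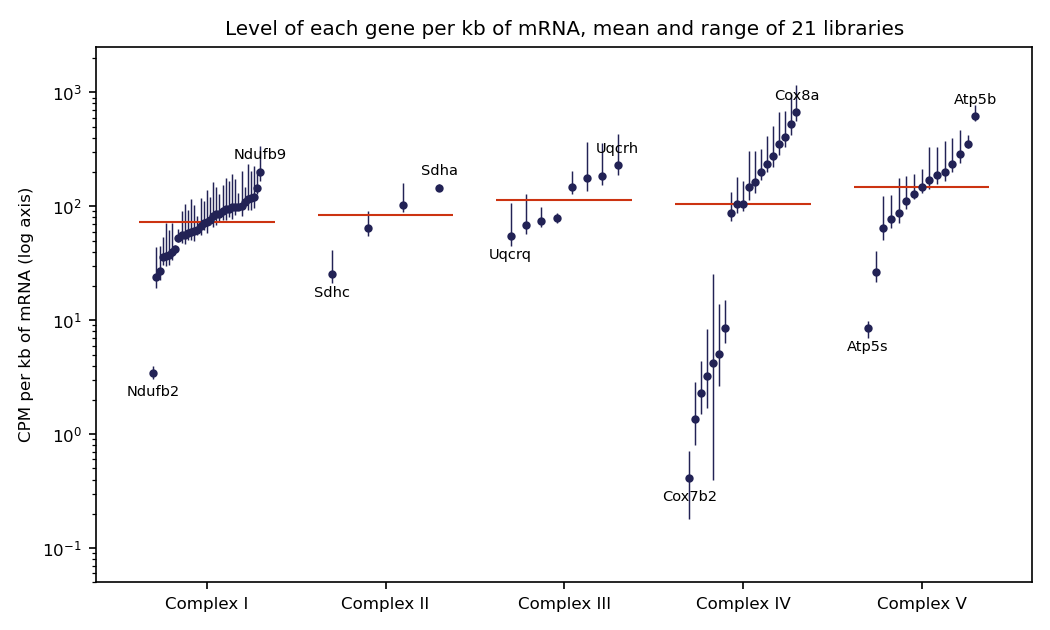
Each point is the mean level of 1 gene over 21 libraries in CPM per kb of principal mRNA (log axis), the bar its range from the lowest to the highest library and the red line the median gene of the complex. Complex IV spans the widest range, from Cox7b2 at 0.409 to Cox8a at 672, and Sdha and Ndufb2 have among the shortest bars.

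Complex IV held both ends of the range, and some of its subunits exist as isoforms. The alternative isoforms, some of them best known from lung, heart, muscle or testis, were low in hippocampus beside their ubiquitous partners. Over the 4 groups the mean ratio ranged from 0.279% to 0.334% for Cox4i2 to Cox4i1, from 1.88% to 1.99% for Cox6a2 to Cox6a1, from 1.06% to 1.38% for Cox7a1 to Cox7a2, and from 1.22% to 1.34% for Ndufa4l2 to Ndufa4. The 3 genes that encode the identical c-ring subunit of ATP synthase were closer to each other, with Atp5g1 at 61.0% to 62.2% and Atp5g2 at 27.5% to 28.3% of Atp5g3. These are ratios of counts that are not scaled by length. Of the transcript words of 31 bases, 14.1% in Atp5g1, 40.2% in Atp5g2 and 0.0% in Atp5g3 also occur in other genes. Only uniquely aligned read pairs were counted, and the part of this in the ratios was not tested. None of the 24 comparisons of a log2 ratio between groups passed an exact two-sided permutation test, and the smallest p was 0.206 (adjusted p = 0.979) for Cox7a1 to Cox7a2, whose log2 ratio was lower by 0.34 in KDSH (n = 5) than in WTSH (n = 4) and differed by −0.13 without WTSH sample 19.

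To show what lies upstream of these genes, 300 bases around each start (250 before, 50 after) were taken from RefSeq on GRCm38 for the 69 members that had an entry. The letters of the NRF1 site, CGCANGCGC, were found on either strand in 24 of the 69 members (34.8%) and in 7.12% of all 27025 genes with an entry. Those of the YY1 site, AAGATGGCG, were found in 8 members (11.6%, against 1.64% of all genes). The ETS or GABPA site, CCGGAAGT, was found in 5 (7.25%, against 4.31%), the full cyclic AMP response element (CRE), TGACGTCA, in 4 (5.8%, against 2.03%) and the ERR site, TCAAGGTCA, in 2 (2.9%, against 0.466%). NRF1, GABPA, YY1 and ERR proteins are textbook regulators of nuclear genes for mitochondrial proteins, and CREB, which MSK1 phosphorylates, binds the CRE. None of these motifs lies within another, and 33 members held none of them. A match is a string of letters and not evidence of binding. In the comparison of housing below, the median log2 fold change was 0.20 in members with the NRF1 letters and 0.20 in those without. With and without the other letters it was 0.20 and 0.20 for YY1, 0.21 and 0.20 for ETS, 0.11 and 0.20 for the CRE, and 0.18 and 0.20 for ERR. A part of these motifs in the levels was not tested.

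For each motif the member is printed that had the smallest p value in the comparison of housing below, among those eligible. The motif had to lie in the 250 bases before a start, within the longest stretch outside annotated untranslated regions. That stretch had to hold at least 100 bases, and members already printed for another motif were passed over. Motifs are in capitals, and sequences run 5′ to 3′ on the strand of the gene. Ndufb4, an accessory subunit of complex I, carries the NRF1 letters, Uqcrh the ETS letters in reverse 3 bases before its start, Atp5j, the coupling factor 6 subunit of ATP synthase, the YY1 letters before a second start inside the gene, Atp5g3 the ERR letters in reverse and Ndufb2 the full CRE 6 bases before its start.
Ndufb4 (GRCm38, chr16:37654454-37654618, minus strand): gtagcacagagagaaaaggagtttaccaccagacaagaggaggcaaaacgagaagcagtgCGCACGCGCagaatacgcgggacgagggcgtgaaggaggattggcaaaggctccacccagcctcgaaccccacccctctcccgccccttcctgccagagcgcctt
Uqcrh (GRCm38, chr4:116075072-116075268, minus strand): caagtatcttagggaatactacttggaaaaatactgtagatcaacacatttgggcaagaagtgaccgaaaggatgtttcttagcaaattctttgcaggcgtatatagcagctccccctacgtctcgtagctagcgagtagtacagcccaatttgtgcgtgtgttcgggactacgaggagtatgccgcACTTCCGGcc
Atp5j (GRCm38, chr16:84835024-84835123, minus strand): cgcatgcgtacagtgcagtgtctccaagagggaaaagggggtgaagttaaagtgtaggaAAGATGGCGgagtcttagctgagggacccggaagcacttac
Atp5g3 (GRCm38, chr2:73911327-73911576, minus strand): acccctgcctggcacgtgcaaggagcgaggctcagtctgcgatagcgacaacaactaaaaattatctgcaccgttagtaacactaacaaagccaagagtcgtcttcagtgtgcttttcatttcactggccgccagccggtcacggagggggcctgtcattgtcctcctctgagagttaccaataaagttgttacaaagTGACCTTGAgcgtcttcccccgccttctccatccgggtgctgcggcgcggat
Ndufb2 (GRCm38, chr6:39592315-39592564, plus strand): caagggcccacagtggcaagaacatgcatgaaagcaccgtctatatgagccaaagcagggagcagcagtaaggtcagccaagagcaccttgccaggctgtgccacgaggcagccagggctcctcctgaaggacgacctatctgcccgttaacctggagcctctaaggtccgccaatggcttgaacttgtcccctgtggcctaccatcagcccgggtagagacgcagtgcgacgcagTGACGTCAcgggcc

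Whether enrichment was accompanied by another level of these genes was asked first in all mice, with the enriched and standard-housed means of both genotypes compared. In 82 of the 83 tested genes the level was higher in enriched mice, and the median log2 fold change was 0.21, against 0.01 over all 20187 genes tested. No member was called (edgeR's quasi-likelihood test, Benjamini-Hochberg adjusted p under 0.05 with a log2 fold change beyond 0.38 in size), and 0.00495% of all genes, a single gene, was. At an unadjusted p under 0.05, 48 of the 83 (57.8%) were higher and 0 lower, beside 9.77% and 9.13% of all genes tested. The members rose and fell together from library to library, so such counts are not of independent observations. The smallest adjusted p among members was 0.203, in Cox6c. The differences are between mice, and in bulk tissue fewer cells of a type and less RNA per cell cannot be told apart. Housing also ran with the sample numbers, as 1 to 8 were all standard-housed, 9 to 17 all enriched, and 18 to 24 held both. In samples 18 to 24 the 84 genes summed to 8955, 8966 and 9672 CPM in enriched mice. In standard-housed mice of these numbers they summed to 8670, 8947, 8964 and 9497 CPM. What the numbers stand for is not given, and their part in the result was not tested.

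Cox6c, a small nuclear subunit of complex IV encoded at chr15:35925886-35938246, had levels of 153, 164, 166 and 176 CPM in the WTSH libraries. In WTEE it ranged from 149.6 to 337 with a median of 182 CPM. In KDSH the levels were 142, 148, 149, 152 and 154 CPM, and in KDEE they ranged from 156 to 210.4 with a median of 186 CPM. Every KDEE library was thus above every KDSH library, whereas the WT groups overlapped. The log2 fold change over both genotypes was 0.32 ± 0.105 (SE, adjusted p = 0.203) and 0.21 without WTEE sample 10 (adjusted p = 0.0979).

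Ndufs4, an assembly-critical accessory subunit of complex I (chr13:114287795-114388258), stood at 39.4, 42.6, 43.2 and 44.6 CPM in WTSH and between 42.3 and 76.1 with a median of 47.4 in WTEE. In KDSH it was at 38.6, 38.7, 40.9, 41.4 and 43.2 CPM, and in KDEE between 41.4 and 50.8 with a median of 45.4. Enriched medians were higher in both genotypes but the ranges overlapped, with a log2 fold change of 0.23 ± 0.0801 (SE, adjusted p = 0.211) and 0.16 without WTEE sample 10. Atp5b ranged from 1119.7 to 1183 CPM in WTSH, from 1104 to 1487 in WTEE, from 1068 to 1128 in KDSH and from 1118 to 1265 in KDEE. Its log2 fold change was 0.11 ± 0.0494 (adjusted p = 0.247), and the WTEE and KDEE medians, both at 1204 CPM, lay above every standard-housed library.

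All 5 complexes were higher in most or all of their genes. In complex I, 34 of 35 genes were higher in enriched mice with a median log2 fold change of 0.20, and 18 had an unadjusted p under 0.05. Complex II had 4 of 4 higher with a median of 0.17 and 3 under 0.05, and complex III 8 of 8 with a median of 0.24 and 6 under 0.05. In complex IV 19 of 19 tested genes were higher with a median of 0.25 and 11 under 0.05, and in complex V 17 of 17 with a median of 0.18 and 10 under 0.05. Differences between complexes were not tested. Without WTEE sample 10 the medians were 0.11 in complex I, 0.11 in II, 0.12 in III, 0.15 in IV and 0.11 in V, with the same numbers of genes higher. The 7 core subunits of complex I had values from 0.04 to 0.22 with a median of 0.14, and 3 of them had an unadjusted p under 0.05.

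Sdha stood at 396, 413, 426 and 432 CPM in WTSH, between 401 and 454 in WTEE, at 397, 411, 413, 418 and 435 in KDSH and between 419.9 and 435 in KDEE, so that all groups overlapped. It was higher in enriched mice by a log2 fold change of 0.03 ± 0.0333 (adjusted p = 0.646), Ndufs1, the largest iron-sulphur subunit of complex I, by 0.04 ± 0.035 (0.519), Atp5a1, the alpha subunit of ATP synthase, by 0.08 ± 0.0434 (0.31), and Ndufv1, the NADH-binding subunit, by 0.10 ± 0.0518 (0.284). Other defining subunits had higher values, among them Uqcrfs1, the Rieske iron-sulphur protein (0.14 ± 0.0584), Cox5a (0.15 ± 0.0804), Uqcrc1 (0.16 ± 0.067), Sdhb (0.18 ± 0.0772) and Cox4i1 (0.21 ± 0.0938). Values chosen after they were seen were those of Atp5j2, the f subunit of ATP synthase (0.33 ± 0.113), Ndufb4 (0.31 ± 0.114) and Uqcrh (0.28 ± 0.104).

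Ndufb2, an accessory subunit of complex I, was the single gene with a lower value in enriched mice, with a log2 fold change of −0.06 ± 0.048 (SE, adjusted p = 0.508). It stood at 14.5, 14.8, 15.5 and 17.3 CPM in WTSH, between 13.8 and 15.7 in WTEE, at 13.7, 13.97, 14.97, 15.2 and 16.7 in KDSH and between 13.4 and 15.8 in KDEE, and all groups overlapped. The annotation gives it an mRNA of 4371 bases, and 7.94% of its exon sequence overlaps other genes, which read pairs counted without strand cannot separate.

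**Figure D2:**
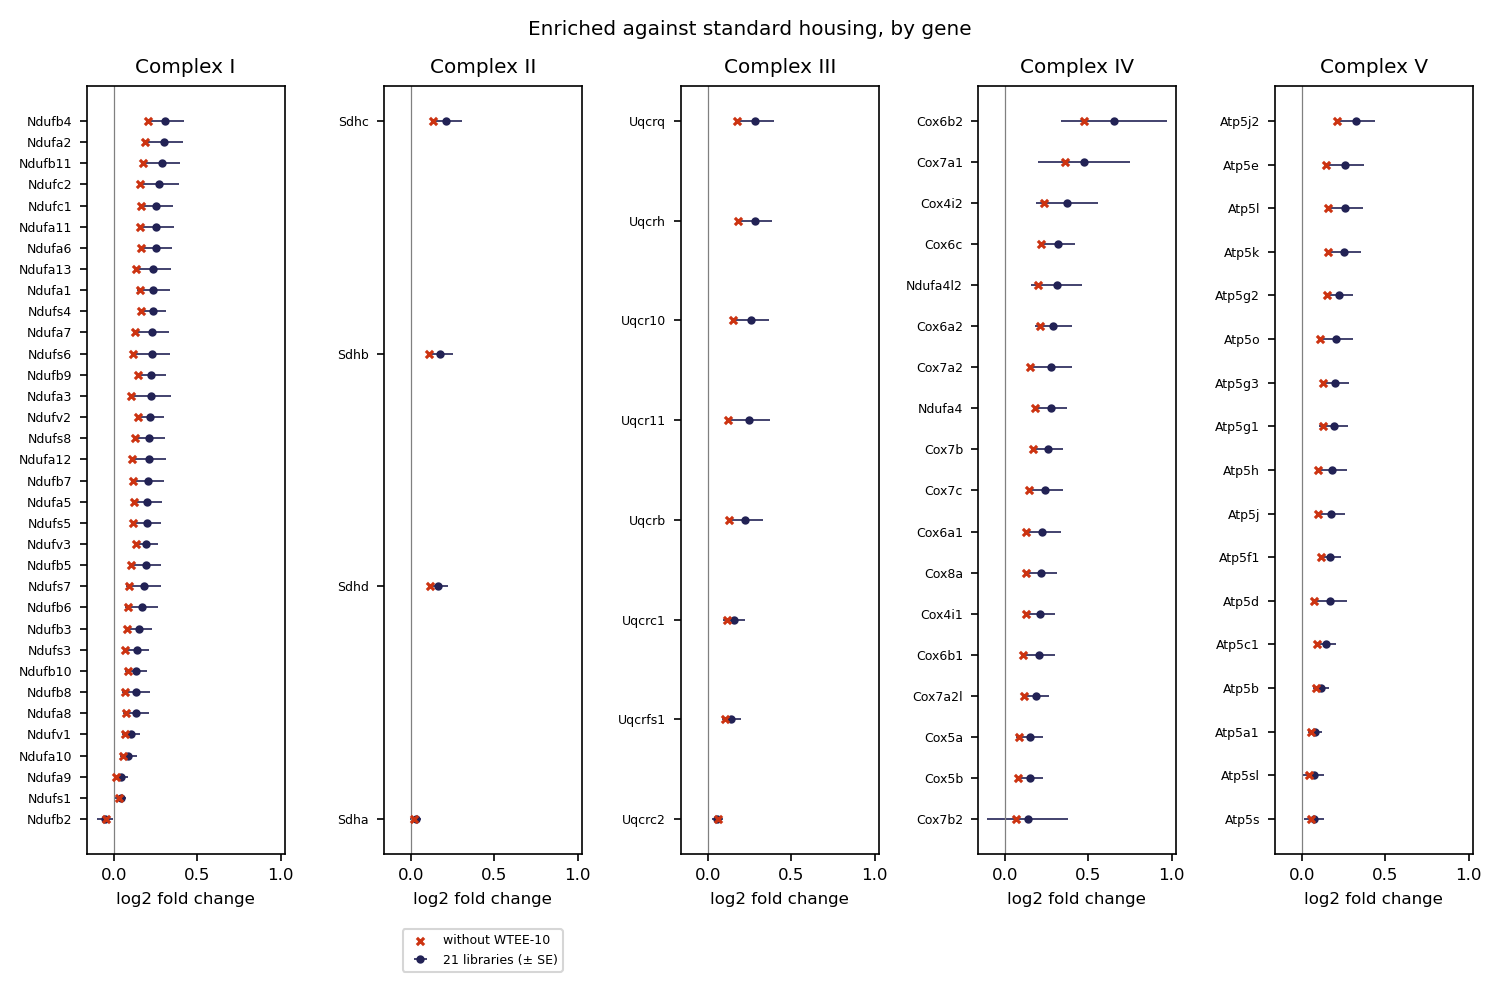
Log2 fold change of 81 of the 83 tested genes, enriched against standard housing, by complex, with the SE over 21 libraries (dark points) and the value without WTEE sample 10 (red crosses). Cox8b, at 2.15, lies outside the axis and is left out with 1 other gene, Ndufb2 alone is below 0, and the crosses lie nearer 0 than the points in most rows.

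By the length of the principal mRNA, the difference was smaller in longer members. In the 27 members with the shortest mRNA (360 to 645 bases) the median log2 fold change was 0.25, in the next 27 (659 to 1076 bases) 0.20 and in the 27 longest (1079 to 4715 bases) 0.16. Genes outside the pathway had a median of 0.08 where their median transcript was of at most 600 bases and −0.07 where it was over 4000. Binned by median transcript as well, members did not fall steadily. Their medians were 0.23 (40 genes), 0.18 (27), 0.20 (8), 0.15 (4) and 0.20 (2) from short to long. With a smooth trend on length and GC content removed from every library, 29 members had an unadjusted p under 0.05 in the higher direction beside 8.53% of all genes, and the median of the members was 0.14. The part of length in the result was not tested further.

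Other gene sets moved beside these genes in the same comparison. Of 86 tested genes of cytoplasmic ribosomal proteins, which are likewise short and abundant, 84 were higher in enriched mice, 68 with an unadjusted p under 0.05, with a median log2 fold change of 0.23. All 12 tested subunits encoded by the mitochondrial genome were higher, 7 with an unadjusted p under 0.05, with a median of 0.30. Several of these genes had few counts beside mt-Co1, which averaged 14240 CPM. Low means were those of mt-Co2 (9.39 CPM), mt-Co3 (11.1), mt-Atp6 (7.98), mt-Nd3 (1.82) and mt-Nd4l (0.495). Only uniquely aligned read pairs were counted, and the cause of the low counts was not tested. Of 44 assembly factors 35 were higher and 9 lower, with a median of 0.07, and 8 higher and 1 lower had an unadjusted p under 0.05. The 16 genes of the citric acid cycle had a median of 0.06 with 5 under 0.05, all higher, and 14 regulators of mitochondrial genes had a median of −0.02 with 2 higher and 2 lower under 0.05. Of 10 further respiratory chain genes, which the rule does not take in, 9 were higher with a median of 0.14, and 3 higher and 1 lower were under 0.05.

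Markers of other cells moved as well. The 13 choroid plexus genes were all higher in enriched mice (10 under 0.05, median log2 fold change 2.32), with summed levels of 199 to 6194 CPM in WTSH, 229.9 to 8102 in WTEE, 194 to 300.2 in KDSH and 322 to 13280 in KDEE. Ttr was found in every library, at 4.68 CPM or more, and Kcnj13 was at 0 in the lowest. The 5 red blood cell genes were all higher (5 under 0.05, median 1.46), summing to between 36.1 and 75.5 CPM in standard-housed and between 54.9 and 381 CPM in enriched mice. The 5 oligodendrocyte genes were all higher (4 under 0.05, median 0.24), and 9 markers of hippocampal neurons had a median of −0.05 with 1 under 0.05. All 6 interneuron genes were higher (2 under 0.05, median 0.15), as were all 5 microglia genes (1 under 0.05, median 0.05), while 3 of 5 astrocyte genes (median 0.00) and 4 of 7 endothelial and mural genes (median 0.05) were. With the share of choroid plexus counts as a covariate 6 members were higher at an unadjusted p under 0.05, beside 4.46% of all genes, and the median was 0.13. A list of 8 models, called structural RNA here, held Rn18s-rs5, Mir6236, Gm23935, Lars2, Gm10800, Gm26870, Gm10801 and Gm10717. With the share of this list as a covariate 12 members were higher at an unadjusted p under 0.05, beside 4.97%, and the median was 0.16. Without the 5 libraries rich in choroid plexus genes 20 were, beside 6.98%, and the median was 0.09. The part of these cells and RNAs in the result was not tested.

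Of the 83 tested members, 3 were higher in each of the 5 libraries rich in choroid plexus genes than in any other. Cox8b, the muscle isoform of cytochrome c oxidase subunit 8, stood at 3.05 CPM in WTSH sample 19, 6.58 and 6.99 in WTEE samples 10 and 13, and 9.18 and 1.78 in KDEE samples 12 and 14, which are the 5 choroid-rich libraries. In the other 16 it ranged from 0.141 to 0.565 CPM. Cox6b2, the testis isoform of subunit 6B, ranged from 3.49 to 8.12 CPM in the 5 and from 1.54 to 2.55 in the 16, and Cox7a1, the heart and muscle isoform of subunit 7A, from 1.38 to 3.31 and from 0.665 to 1.18. These were the 3 of 83 members whose 5 values all lay above the other 16. Among all genes tested 2.51% did so, a share near that of the members, which as a set did not stand out. Cox8b also had the highest fold change of any member in enriched mice (log2 2.15 ± 0.861, adjusted p = 0.232).

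**Figure D3:**
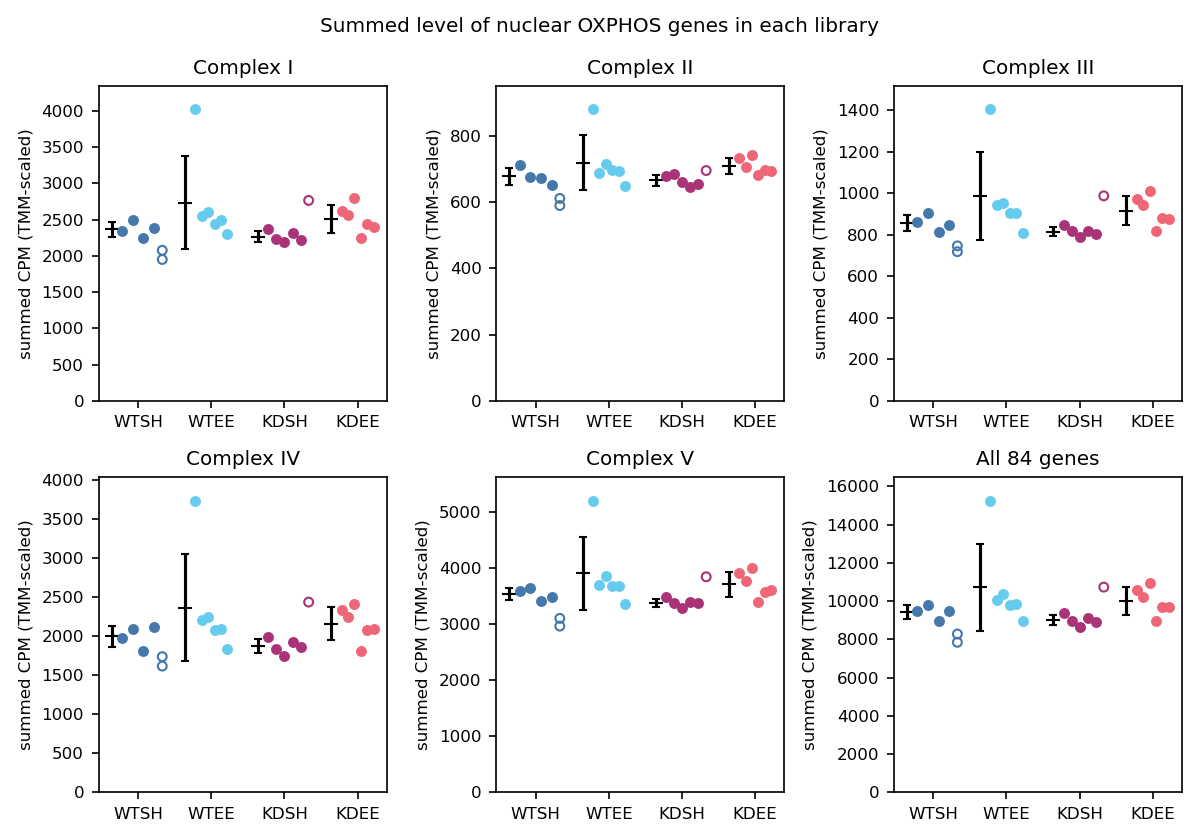
Summed CPM of the genes of each complex and of all 84 in every library, by group, with filled points for the 21 libraries, open points for the 3 left out, and the mean ± SD of the filled points in black. WTEE sample 10 lies above every other library in all panels, reaching 15240 CPM over the 84 genes, and the open WTSH points lie below and the open KDSH point above their groups.

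WTEE sample 10 set much of the spread. Its genes of the pathway summed to 15240 CPM, beside 8955 to 10380 CPM in the other 5 WTEE libraries, and it was the highest of the 21 libraries in 76 of 83 genes. Over the groups the sums were 9438 ± 352 CPM in WTSH (SD, n = 4), 10720 ± 2265 in WTEE (n = 6), 9005 ± 259 in KDSH (n = 5) and 10010 ± 719 in KDEE (n = 6), and 9815 ± 531 in WTEE without sample 10 (n = 5). The median gene lay 0.85 above its 21-library median on the log2 scale in this library, ribosomal protein genes 0.87 and mitochondrial genome subunits 0.59. Choroid plexus genes summed to 6310 CPM in it, and the list of hippocampal neuron markers to 5555 CPM, against up to 8703 CPM elsewhere in its group. Much of the neuron sum is Camk2a, which averaged 4132 CPM over the 21 libraries with a lowest value of 2201. Without it 82 of 83 members were still higher in enriched mice, with a median of 0.12, and 57 had an unadjusted p under 0.05 beside 9.38% of all genes. The median SD within groups over the members was 0.113 on the log2 scale without it, against 0.213 with it. Over all genes tested it was 0.163, against 0.209. The smallest adjusted p among members without sample 10 was 0.0979. KDEE sample 15 lay above the 21-library median in 83 of 83 genes and KDSH sample 24 in 0 of 83, and without KDEE sample 15 or WTSH sample 23 the count at an unadjusted p under 0.05 was 30.

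**Figure D4:**
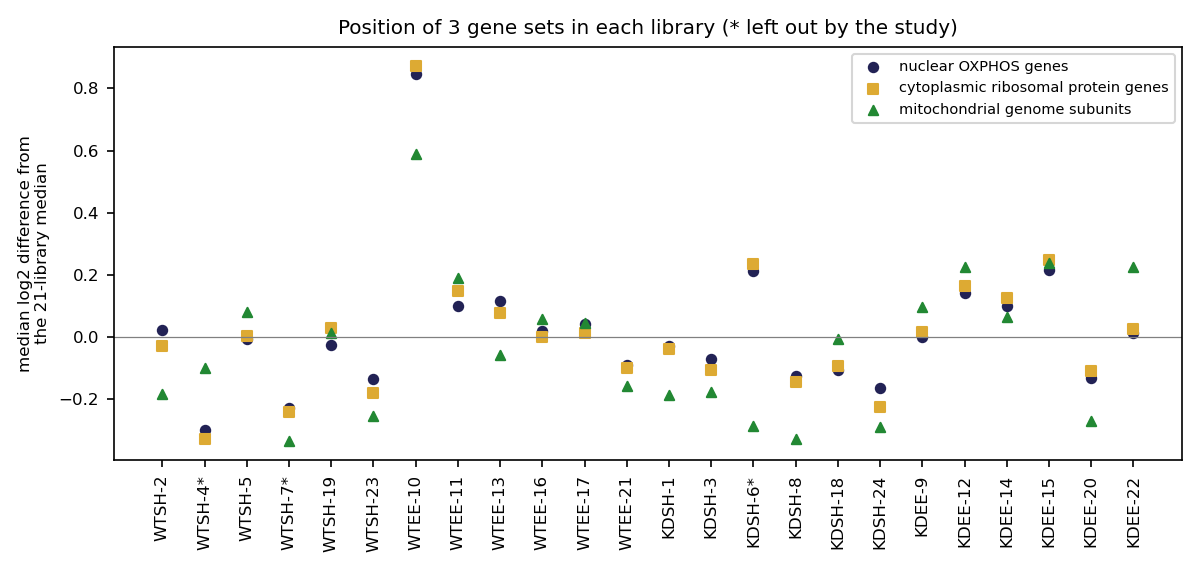
Median log2 difference of 3 gene sets from their median over the 21 libraries, in each of the 24 libraries (asterisks mark the 3 left out). Nuclear genes of oxidative phosphorylation and ribosomal protein genes lie side by side in most libraries, at 0.85 and 0.87 in WTEE sample 10, and mitochondrial genome subunits lie apart from them in several, as in KDSH sample 6 at −0.29.

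Within the WT mice, 82 of 83 genes were higher in WTEE than in WTSH, with a median log2 fold change of 0.25 against 0.01 over all genes, and 0 members (0% of all genes) were called. The paper, with DESeq2, reported differentially expressed genes here, within the MSK1 KD mice and between the enriched genotypes. Shares of all genes called here and below are those of the edgeR test. At an unadjusted p under 0.05, 11 members were higher and 0 lower, beside 3.95% and 2.6% of all genes. The smallest p values were those of Ndufs4 (log2 fold change 0.29 ± 0.117, adjusted p = 0.651) and Ndufc1, another accessory subunit of complex I (0.33 ± 0.146, adjusted p = 0.651), which averaged 27.5 ± 1.35 CPM in WTSH (n = 4) and 34.5 ± 10.1 in WTEE (n = 6). This comparison rested on WTEE sample 10, without which the median was 0.07, 80 of 83 genes were higher, 1 had an unadjusted p under 0.05, and Ndufs4 and Ndufc1 were both at 0.14. Without the 5 choroid-rich libraries the median was 0.04.

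Within the MSK1 KD mice, 81 of 83 genes were higher in KDEE than in KDSH, with a median log2 fold change of 0.17 against 0.00 over all genes, and 0 members (0% of all genes) were called. Cox8b (3.003 ± 1.27, adjusted p = 0.398), Cox6c (0.32 ± 0.144, adjusted p = 0.417) and Sdhd, a membrane anchor of complex II (0.17 ± 0.0826, adjusted p = 0.423), were the 3 with an unadjusted p under 0.05 in the higher direction, where 5.64% of all genes were, and 0 were lower beside 5.98%. The KDEE and KDSH libraries did not overlap in 3 members, Atp5c1 (the gamma subunit of ATP synthase), Atp5f1 (a peripheral stalk subunit) and Cox6c, all higher in KDEE, as were 1.09% of all genes. Atp5f1 stood between 184 and 193 CPM in KDSH and between 194 and 229 in KDEE, but 45.9% of its transcript words of 31 bases also occur in other genes. The members lower in KDEE were Cox7b2 (−0.47 ± 0.335, adjusted p = 0.553) and Ndufb2 (−0.02 ± 0.0659, adjusted p = 0.889). Without WTEE sample 10, a library outside this comparison that widens the shared estimate of the spread, the median was 0.18, 61 members had an unadjusted p under 0.05 beside 11.8% of all genes, and the smallest adjusted p was 0.0794, in Atp5j2 and Cox6c. With only the KDSH and KDEE libraries in the model the count was 49, beside 9.65% of all genes, and without KDEE sample 12 or KDSH sample 8 it was 0. In the same comparison 13 of 13 choroid plexus genes (median 3.86) and 5 of 5 oligodendrocyte genes (median 0.28) were higher at an unadjusted p under 0.05. With the choroid plexus share as a covariate 0 members were under 0.05 and their median was 0.07. Cox8b was at 1.34 without KDEE sample 12.

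Between genotypes in standard housing, 79 of 83 genes were lower in KDSH than in WTSH, with a median log2 fold change of −0.07 against 0.00 over all genes. None was called (0% of all genes) and none had an unadjusted p under 0.05, where 1% of all genes had one in either direction. Cox7b2 had the largest value in the higher direction (0.76 ± 0.377, adjusted p = 1), from 5 to 10 read pairs per WTSH library and 6 to 18 per KDSH library, and Cox8b in the lower (−1.98 ± 1.36, adjusted p = 1, and −0.32 without WTSH sample 19), followed by p value by Cox4i2 (0.17 ± 0.284) and Ndufs1 (−0.06 ± 0.053). Atp5f1 was the single member whose groups did not overlap, at 196 to 205 CPM in WTSH and 184 to 193 in KDSH, where 0.486% of all genes were lower without overlap. With all 24 libraries the median turned to 0.06.

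Between genotypes in enrichment, 80 of 83 genes were lower in KDEE than in WTEE with a median of −0.14, and 0 were called (0% of all genes) or had an unadjusted p under 0.05, where 4.99% of all genes had one in either direction. With DESeq2 the paper did report differentially expressed genes in this comparison, all of them higher in enriched WT mice. The smallest p values in the lower direction were those of Ndufa10 (−0.12 ± 0.0676, adjusted p = 0.957) and Ndufb5 (−0.21 ± 0.12, adjusted p = 0.957), and in the higher those of Sdha (0.01 ± 0.0434) and Ndufb2 (0.01 ± 0.0627). This direction rested on WTEE sample 10, without which 74 of 83 were higher in KDEE, the median was 0.03, Ndufa10 was at −0.04 and Ndufb5 at −0.02. Without the 5 choroid-rich libraries, of which it is one, 59 of 83 were higher and the median was 0.02, and with the structural RNA share as a covariate the median was −0.03. Over both housings, 80 of 83 were lower in MSK1 KD mice with a median of −0.11, and 0 were called (0% of all genes) or under 0.05, beside 1.9% of all genes, and without WTEE sample 10 the median was −0.02.

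Whether the difference with housing itself differed between genotypes was tested with the interaction. The median log2 difference of the differences was −0.07, 0 members were called (0% of all genes), and 1 was under an unadjusted p of 0.05, where 3.26% of all genes were in either direction. That gene, Cox7b2, a testis isoform of subunit 7B, had a difference of −1.21 ± 0.491 (adjusted p = 0.9999) and averaged 0.155 ± 0.039 CPM in WTSH, 0.260 ± 0.109 in WTEE, 0.261 ± 0.0976 in KDSH and 0.195 ± 0.0675 in KDEE, from 5 to 22 read pairs per library. The next smallest p value in the lower direction was that of Ndufa10 (−0.12 ± 0.104, and −0.03 without WTEE sample 10). The smallest in the higher direction were those of Cox8b (1.70 ± 1.68, and 0.04 without KDEE sample 12) and Uqcrc2, a core protein of complex III (0.05 ± 0.0659). The median of the interaction turned to 0.10 without WTEE sample 10, to 0.09 without the 5 choroid-rich libraries and to 0.04 with the structural RNA share as a covariate.

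The 3 libraries that the study left out did not lie on one side. The median gene lay 0.30 and 0.23 below the 21-library median on the log2 scale in WTSH samples 4 and 7, and 0.21 above it in KDSH sample 6. Reads on structural RNA models took 22.7% and 22.5% of counts in the first pair and 5.46% in KDSH sample 6. In a model of all 24 libraries with left-out status beside the groups, the median log2 fold change of the left-out libraries was 0.00, 44 members were higher and 39 lower, and 0 members were called beside 1.92% of all genes. At an unadjusted p under 0.05, 1 member was lower, Cox7b2, where 7.37% of all genes were in either direction. Without KDSH sample 6 the median was −0.23.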

How the data were processed

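Hippocampal poly(A) RNA of 24 mice was measured by RNA-Seq, with 1 library per mouse and 6 mice per group by the labels. The authors trimmed 150 bp read pairs with Skewer, aligned them to GRCm38 with STAR 2.5 and deposited raw counts of uniquely aligned read pairs per gene symbol from HTSeq 0.6.1p1, without regard to strand and without normalization, so reads of overlapping genes and of near-identical copies are lost or split. Total counts ranged from 27410239 to 71907130 in the 21 libraries used, and PCR copies cannot be told apart.

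edgeR 4.0.16 (R 4.3.3) gave the main test, by quasi-likelihood (TMM, default filter on low counts, the 4 groups in 1 model), with adjustment over all genes tested and the thresholds of the study. CPM values are scaled by TMM. SE is the log2 fold change divided by the root of F. The study's DESeq2 Wald test (1.42.0) was an alternative, beside other size factors, filters, libraries and covariates. The scripts were tested on simulated data with 200 changed genes. Isoform ratios were compared with exact two-sided permutation tests, adjusted over 24 tests. Lengths and overlaps came from GENCODE M21 and promoters from RefSeq, both on GRCm38. Genes were named by a rule: called members, the 2 smallest p values in each direction per comparison, the highest and lowest level per complex, 11 defining subunits (1 is not reported here or drawn by name), isoform pairs and members under the filter. Members named outside it, such as Atp5j2, Uqcrh, Ndufb4, Cox6b2 and Atp5f1, were chosen after their values were seen. The members, lists and motifs were chosen with earlier results of these data known. Figures used matplotlib 3.10.9.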

Additional observations from a re-analysis of the deposited data

Results flagged for a closer look

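In 6 of the 24 combinations of complex and group that were checked, the highest library stood farther from the next than Dixon's 95% critical value allows, and chance gives about 1 in 20 of them. All 6 were WTEE sample 10. Its summed level was 4020 CPM in complex I (next library 2605), 880.6 in complex II (714.1), 1404 in complex III (954.2), 3735 in complex IV (2241), 5204 in complex V (3863) and 15240 over all 84 genes (10380). These sums share genes or libraries and are not independent of each other. Of single genes, 66 of the 83 tested had an outlying highest value in WTEE, and in all 66 the library was sample 10. The cause was not tested.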

How the results depend on the processing

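No member was called in any alternative that was run, the DESeq2 Wald test included, and not every alternative was run for each of the 8 comparisons. Over its alternatives the median of the members ranged from 0.09 to 0.23 for enriched against standard housing, 0.0386 (without the 5 choroid-rich libraries) to 0.31 for WTEE against WTSH, 0.07 to 0.20 for KDEE against KDSH and −0.13 to −0.02 for MSK1 KD against WT. It changed sign in 2 alternatives for KDEE against WTEE (−0.20 to 0.03), 1 for KDSH against WTSH (−0.10 to 0.06), 3 for the interaction (−0.19 to 0.10) and 11 for the left-out libraries (−0.23 without KDSH sample 6 to 0.10 without WTSH sample 4). Counts of members higher at an unadjusted p under 0.05 moved more. For enriched against standard housing (48) they were 6 with the choroid plexus share and 12 with the structural RNA share as covariate, 29 without the trend on length and GC content, 20 without the 5 choroid-rich libraries, and 30 to 67 with 1 library left out. The trend and the choroid-rich libraries were chosen after seeing the data. For WTEE against WTSH (11) the counts were 17 with DESeq2, 18 with no filter, 70 with all 24 libraries, 0 with only the groups compared, with the structural RNA share or without the choroid-rich libraries, 2 with the choroid plexus share, 6 without the trend, and 0 (without WTSH sample 23) to 48 (without WTEE sample 21) with 1 left out. For KDEE against KDSH (3) they were 1 with all 24 libraries or at least 10 counts in every library, 0 with the choroid plexus share, 49 with only the groups compared, 27 without the choroid-rich libraries, and 0 to 61 with 1 left out. For KDSH against WTSH (0) the count was 1 without the trend and 0 to 1 with 1 left out, and for the interaction (0) 0 to 3. The cause was not tested.

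Small differences changed sign. With all 24 libraries the log2 ratio of Atp5g2 to Atp5g3 turned to −0.0252 (KDSH against WTSH) and −0.0239 (WTEE against WTSH), and that of Ndufa4l2 to Ndufa4 to −0.0315 (WTEE against WTSH). With 1 library left out, the log2 fold change ranged for Ndufb2 from −0.0506 to 0.0252 (KDEE against KDSH) and −0.0114 to 0.0354 (KDEE against WTEE), and for Sdha from −0.0018 to 0.0444 (KDEE against WTEE). Log2 isoform ratios of KDEE against KDSH ranged from −0.0302 to 0.0333 for Atp5g1 to Atp5g3, −0.0045 to 0.0545 for Atp5g2 to Atp5g3, −0.0255 to 0.2162 for Cox4i2 to Cox4i1, −0.0391 to 0.0796 for Cox6a2 to Cox6a1, −0.0167 to 0.3774 for Cox7a1 to Cox7a2 and −0.0099 to 0.1322 for Ndufa4l2 to Ndufa4. Those of KDEE against WTEE ranged from −0.0162 to 0.0293 for Atp5g1 to Atp5g3, −0.034 to 0.1572 for Cox4i2 to Cox4i1, −0.1117 to 0.0065 for Cox6a2 to Cox6a1 and −0.2598 to 0.1969 for Cox7a1 to Cox7a2. Those of KDSH against WTSH ranged from −0.0518 to 0.0116 for Atp5g1 to Atp5g3, −0.02 to 0.0462 for Atp5g2 to Atp5g3, −0.0395 to 0.0879 for Cox6a2 to Cox6a1 and −0.0175 to 0.1421 for Ndufa4l2 to Ndufa4. Those of WTEE against WTSH ranged from −0.0116 to 0.0454 for Atp5g2 to Atp5g3, −0.2938 to 0.1124 for Cox7a1 to Cox7a2 and −0.0748 to 0.0724 for Ndufa4l2 to Ndufa4. No paired analysis was possible because no mouse number occurs in more than 1 group.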
